A study of Anser cygnoides with 11 samples.

Results

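Heat shock proteins and the chaperones of the cytosol were followed in the kidneys of goslings with visceral gout, the deposition of urate on internal organs. The members were all genes whose symbol begins with HSP or DNAJ, or with BAG or CCT and a digit, together with TCP1, without the endoplasmic reticulum chaperone HSPA5 and the matrix proteoglycan HSPG2. The rule found 67 rows and, with 1 row for each symbol, 66 genes among the 19275 rows of the deposited table, and it used names and no measured values. Kidney messenger RNA was sequenced from 5 goslings (Anser cygnoides, the swan goose) that had visceral gout together with its serum signs, and from 6 healthy ones. No age, sex, strain, batch or drug is given for either group, and a treatment text in the labels on oxygen in water tanks does not describe goslings and was not used. The values are FPKM, a fragment number divided by the length of the transcript and by the size of the library, and the table holds no counts, so depth is unknown and no counting interval can be given.

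Chaperones bind unfolded or half-folded proteins and keep them from clumping. HSP70 proteins take up short exposed stretches of a client, J-domain proteins (the DNAJ families) bring clients and switch on the HSP70 ATPase, and BAG proteins release them again. HSP90 finishes signalling proteins such as steroid receptors and kinases, the CCT ring folds actin and tubulin, HSP60 with its HSP10 lid folds proteins imported into mitochondria, and small HSPs hold denatured proteins without using ATP. Heat, oxidants, poor oxygen supply and damaged proteins activate the factor HSF1, which raises the transcription of many of these genes, and in injured mammalian kidney tubules HSP70 and the small HSP HSPB1 are well known stress proteins. Sequences of these genes were not used here.

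Of the 66 members, 59 reached 1 FPKM in at least 5 of the 11 libraries and were tested, and the other 7 (DNAJB8, DNAJC12, DNAJC24, DNAJC6, HSPA13, HSPB2 and HSPB3) stayed at or below 0.826 FPKM in every library. In gout kidneys 1 member fell, HSPD1, and 0 rose (limma with Benjamini-Hochberg adjustment over all 12252 tested rows, threshold 0.05). Across all tested rows 6.99% were called, 6.29% lower and 0.694% higher, and after quantile normalization, which gives every library the same distribution of values, 3.84% were called, 245 rows lower and 226 higher, with HSPD1 again the 1 member. Without adjustment 11 members were lower and 0 were higher at p under 0.05, against 24.3% and 2.69% of all tested rows. The log2 fold change of gout against control lay below 0 for 50 of the 59 members, but it did so for 76.8% of all tested rows, and the medians were -0.30 for the members and -0.29 for all rows. After quantile normalization 34 of 59 members and 49.1% of all rows lay below 0, and the medians were -0.02 and 0.01. The direction of members with small differences therefore rests on the scaling between libraries. In 0 of the 59 members did the gout and control libraries fail to overlap, which 5.03% of all tested rows did.

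**Figure D1:**
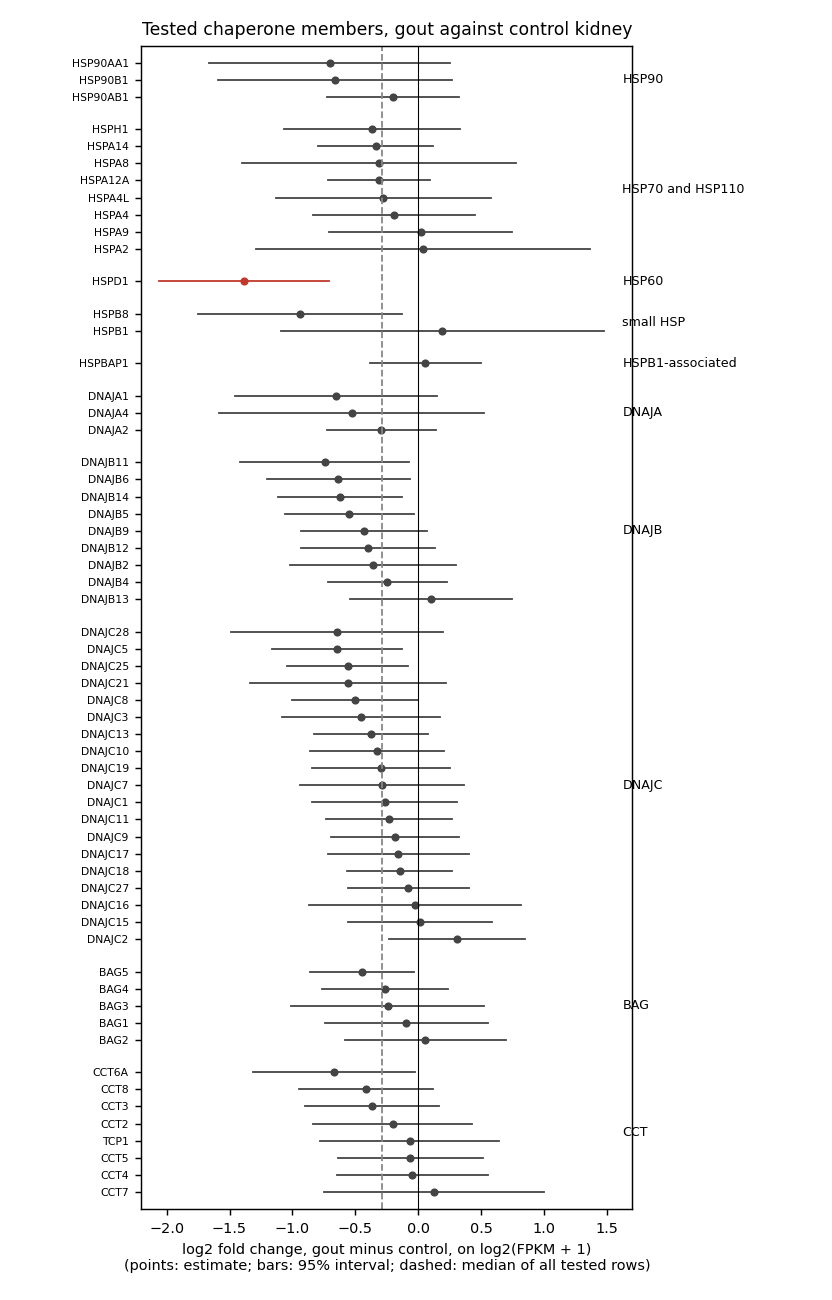
Log2 fold change of gout against control on the log2(FPKM + 1) scale for the 59 tested members, grouped by family. Points are limma estimates, bars their 95% intervals, the dashed line the median of all tested rows at -0.29, and the red member, HSPD1, is the only one past the adjusted threshold.

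HSPD1 encodes HSP60, the chaperonin of the mitochondrial matrix. Its levels in gout replicates 1 to 5 were 50.8, 45.7, 30.5, 40.6 and 103 FPKM, and in control replicates 1 to 6 they were 116, 84.9, 221, 144, 125 and 128 FPKM. Gout replicate 5 lay above control replicate 2, and the other 4 gout goslings lay below all controls. The mean fell from 137 ± 45.9 to 54.2 ± 28.5 FPKM (SD, n = 6 and 5), a log2 fold change of -1.38 (SE 0.31, 95% interval -2.06 to -0.71, limma adjusted p = 0.0221). After quantile normalization the log2 fold change was -1.14 (limma adjusted p = 0.0353). The call was lost without gout replicate 2, 3 or 4 or control replicate 5, where limma adjusted p lay between 0.0508 and 0.0579 and the log2 fold change between -1.40 and -1.21. Without gout replicate 5 it was stronger, at -1.65 (limma adjusted p = 0.00687). Calls over all tested rows moved as well, from 856 to between 316 and 461 in the settings where the HSPD1 call was lost. They rose to 1466 without gout replicate 5.

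The genes beside HSPD1 were read out after its values were seen. In the RefSeq gene order of the Taihu goose genome assembly, HSPD1 lies between LOC106039999, which the deposited table describes as the mitochondrial 10 kDa heat shock protein, and COQ10B, a coenzyme Q binding protein of mitochondria. The 10 kDa row, the HSP10 lid of HSP60, had 12.3, 8.34, 5.57, 6.74 and 16.4 FPKM in gout replicates 1 to 5 and 10.8 to 18.3 FPKM in control libraries. Its groups overlapped, and it was not called (log2 fold change -0.63, SE 0.27, limma adjusted p = 0.156). COQ10B fell from 10.6 ± 5.36 to 3.86 ± 1.86 FPKM (SD, n = 6 and 5), a log2 fold change of -1.21 (SE 0.34) with limma adjusted p = 0.0476, and missed the threshold on the quantile-normalized scale (limma adjusted p = 0.154). The spans of COQ10B and HSPD1 overlap in that annotation, and without stranded counting, on which the sources used here say nothing, reads of the overlap cannot be told apart.

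HSPA9, the mitochondrial HSP70 that pulls proteins through the inner membrane, was not called. It stood at 75.8, 50.9, 44.3, 170 and 126 FPKM in gout replicates 1 to 5 and between 58.2 and 113 FPKM in control libraries. Gout goslings thus lay on both sides of the controls (log2 fold change 0.02, 95% interval -0.71 to 0.74, limma adjusted p = 0.978). The ratio of HSPD1 to HSPA9 within a library, which no scaling factor between libraries can move, was 0.670, 0.899, 0.689, 0.239 and 0.820 in gout and 1.29, 1.21, 1.96, 1.60, 1.68 and 2.20 in control libraries. The ratio of HSPD1 to the 10 kDa row lay between 4.12 and 6.30 in gout and between 7.01 and 12.1 in control libraries. HSPD1 has 1 transcript, while the 10 kDa row joins 7 in a way that the sources used here do not state. Neither ratio overlapped between the groups. Both were chosen after the values were seen and are given without a test.

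**Figure D2:**
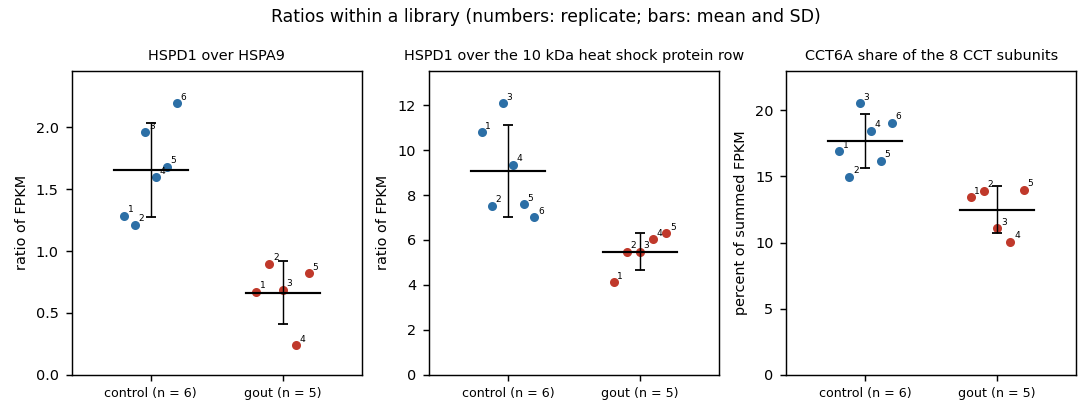
Ratio of HSPD1 to HSPA9, ratio of HSPD1 to the 10 kDa heat shock protein row, and share of CCT6A in the summed FPKM of the 8 CCT subunits, by gosling with mean and SD. All 5 gout libraries lay below all 6 control libraries in each panel; the 3 quantities were picked after the data were seen.

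Among all 1711 pairs of tested members, the ratio within a library did not overlap between the groups for 27, which is 1.58%. HSPD1 was the lower partner in 13 of these 27, and next came CCT6A and DNAJB11 with 3 each. Each member has 58 pairs, so most ratios of HSPD1 overlapped between the groups. Its count comes from the same values as its call. DNAJC2, a J-domain protein bound to ribosomes, was the higher partner in 6. Pairs share members and are not independent of each other. The share among pairs of other tested rows was not computed, so these counts have no background to be set against.

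Further J-domain members known from mitochondria were not called. DNAJC19, part of the import motor, stood at 20.8 ± 10.1 FPKM in gout kidneys against 24.0 ± 2.61 in healthy ones, DNAJC15 at 6.29 ± 2.66 and 5.92 ± 1.36, and DNAJC11 at 13.3 ± 4.50 and 15.2 ± 1.98 FPKM (SD, n = 5 and 6 in each). Their limma adjusted p-values were 0.470, 0.975 and 0.537. Outside the rule, TRAP1, the HSP90 of mitochondria, stood at 18.9 ± 7.94 FPKM in gout kidneys against 26.8 ± 6.06 in healthy ones (SD, n = 5 and 6), and it was not called (limma adjusted p = 0.215). The protease LONP1 ranged from 12.7 to 51.6 FPKM among gout goslings and from 20.5 to 26.6 among controls (limma adjusted p = 0.906).

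HSPA8, the constitutive HSP70 of the cytosol, had the highest mean level of all members in either group. It stood at 550, 192, 73.8, 598 and 559 FPKM in gout replicates 1 to 5 and at 664, 302, 240, 466, 289 and 458 FPKM in control replicates 1 to 6. Gout replicates 2 and 3 lay below all controls and the other 3 within the control range, and the means were 394 ± 243 and 403 ± 158 FPKM (SD, n = 5 and 6). The log2 fold change was -0.31 with a 95% interval from -1.40 to 0.77 (limma adjusted p = 0.713), and 0.03 after quantile normalization. An increase up to 0.77 and a decrease up to 1.40 on the log2 scale therefore lie inside the interval.

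HSPA2, the symbol under which the heat-inducible cytosolic HSP70 is listed in chicken, stood at 74.1, 54.1, 15.1, 69.6 and 306 FPKM in gout and at 98.7, 33.3, 29.2, 156, 71.3 and 71.0 FPKM in control libraries. Gout replicate 5 was the highest and gout replicate 3 the lowest of all 11 goslings, and the other 3 lay among the controls (log2 fold change 0.04, 95% interval -1.29 to 1.36, limma adjusted p = 0.975). HSPA2 and HSPA8 are close in sequence, and how fragments matching both were assigned is not stated in the sources used.

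The HSP110 proteins, nucleotide exchange factors of HSP70, were not called. HSPH1, which HSF1 induces, stood at 4.23, 5.20, 1.46, 6.10 and 10.6 FPKM in gout and between 4.31 and 7.74 FPKM in control libraries (95% interval of the log2 fold change -1.07 to 0.33). HSPA4 stood at 17.3 ± 8.42 and 18.6 ± 4.83 FPKM and HSPA4L at 6.86 ± 4.57 and 8.11 ± 3.72 FPKM (SD, n = 5 and 6). HSPA14, an HSP70 of ribosomes, stood at 7.81 ± 1.82 and 10.1 ± 2.34 FPKM. Of the 8 tested members of the HSP70 and HSP110 families 6 had a log2 fold change below 0, and 3 after quantile normalization. The shares of all tested rows were 76.8% and 49.1%.

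**Figure D3:**
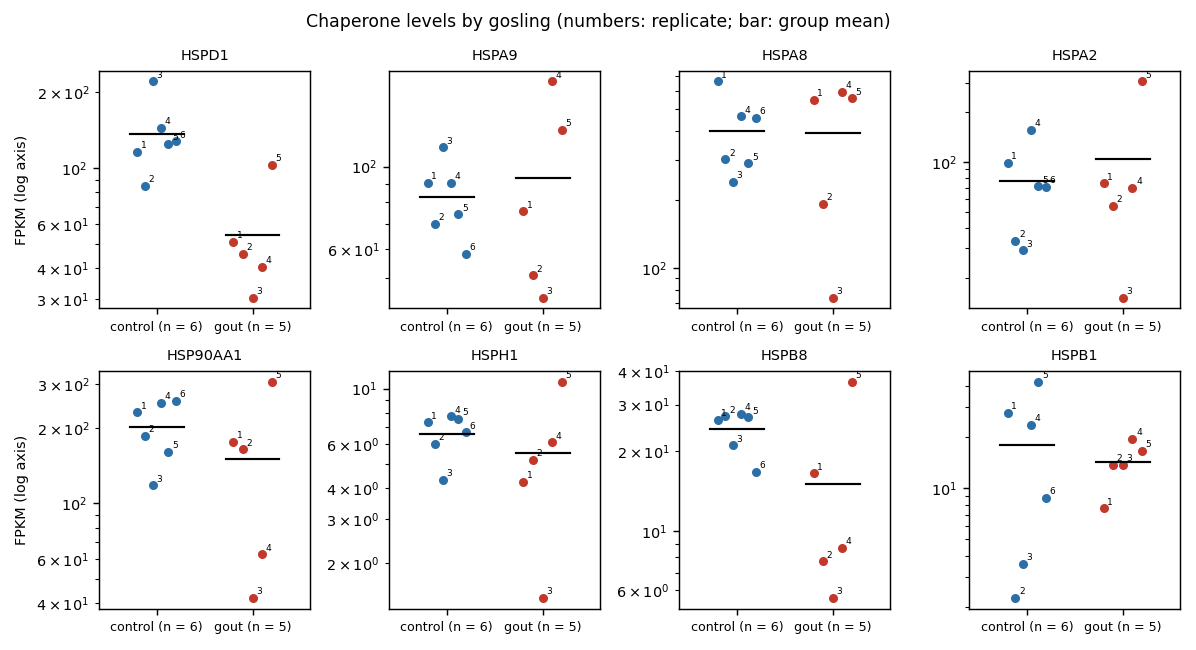
FPKM on a log axis for HSPD1, HSPA9, HSPA8, HSPA2, HSP90AA1, HSPH1, HSPB8 and HSPB1 in each gosling, with replicate numbers and the group mean as a bar. Gout replicate 3 is lowest among gout goslings for 7 of the 8, gout replicate 5 reaches 306 FPKM for HSPA2, and HSPD1 separates the groups except for gout replicate 5.

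HSP90AA1, the inducible HSP90 of the cytosol, stood at 176, 165, 41.8, 62.6 and 307 FPKM in gout and at 231, 187, 118, 253, 161 and 257 FPKM in control libraries. Gout replicates 3 and 4 lay below all controls and gout replicate 5 above them (log2 fold change -0.70, 95% interval -1.66 to 0.25, limma adjusted p = 0.321). HSP90AB1, the constitutive form, had 17.4 ± 5.02 FPKM in gout kidneys against 20.1 ± 5.18 in healthy ones (limma adjusted p = 0.611). HSP90B1, the HSP90 of the endoplasmic reticulum, ranged from 17.2 to 117 FPKM among gout goslings and from 53.0 to 116 among controls (limma adjusted p = 0.337). In these libraries HSP90AA1 had the higher FPKM of the cytosolic pair in each gosling, by a ratio of 2.80 to 15.0 in gout and 7.81 to 17.6 in control libraries. The HSP90AA1 row joins 2 transcripts and the HSP90AB1 row 3, in a way that the sources used here do not state. Their ratio may therefore differ from that of the transcripts themselves.

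Among the small HSPs 2 of 4 members were tested. HSPB8, which works with BAG3 to send damaged proteins to autophagy, stood at 16.5, 7.72, 5.62, 8.68 and 36.6 FPKM in gout and at 26.3, 27.2, 21.1, 27.7, 26.9 and 16.8 FPKM in control replicates 1 to 6. Gout replicate 5 lay above all controls and the other 4 gout goslings below them, and HSPB8 was not called (log2 fold change -0.94, SE 0.38, limma adjusted p = 0.131). Without gout replicate 5 it was, at -1.33 (limma adjusted p = 0.0143). In that setting 3 of 59 members and 1466 of 12252 tested rows were called, against 1 and 856 with every gosling kept. HSPB1, which guards actin filaments, ranged from 7.62 to 19.5 FPKM in gout and more widely, from 2.26 to 42.4 FPKM, among controls (limma adjusted p = 0.856). BAG3, the partner of HSPB8 and a target of HSF1, stood at 12.5, 7.75, 3.57, 24.1 and 14.0 FPKM in gout and between 9.43 and 17.4 in control libraries (limma adjusted p = 0.686).

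The other BAG members were not called. BAG4 stood at 11.3 ± 3.28 FPKM in gout kidneys against 13.6 ± 2.73 in healthy ones, BAG2 at 4.89 ± 1.88 and 4.64 ± 1.82, and BAG5 at 0.882 ± 0.185 and 1.64 ± 0.767 FPKM (SD, n = 5 and 6 in each). BAG1, an exchange factor of HSP70, had 2 rows, and its more abundant row stood at 3.65 ± 1.10 and 4.17 ± 1.91 FPKM. Gout replicate 2 was low among gout goslings for BAG1, at 1.75 FPKM.

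J-domain proteins formed the largest group, with 35 members of which 31 were tested and 0 called, beside 6.99% of all tested rows. At an unadjusted p under 0.05, 7 of them were lower and 0 higher, beside 24.3% and 2.69% of all tested rows. Of the DNAJA type, the main partners of HSP70 in refolding, DNAJA1 stood at 32.9, 33.0, 13.1, 18.0 and 69.0 FPKM in gout and between 31.1 and 65.1 in control libraries (limma adjusted p = 0.271). DNAJA4 went from 1.67 to 25.1 FPKM within gout and from 5.41 to 14.3 within control. DNAJA2 stood at 22.6 ± 5.99 and 27.3 ± 2.22 FPKM (SD, n = 5 and 6). The gout range of DNAJA4 enclosed the control range.

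In the DNAJB type 8 of 9 tested members had a log2 fold change below 0, beside 76.8% of all tested rows. After quantile normalization 7 did, beside 49.1% of all tested rows. DNAJB11, a co-chaperone of the endoplasmic reticulum, stood at 45.2, 14.0, 18.7, 47.3 and 42.4 FPKM in gout and between 43.8 and 59.1 in control libraries. Gout replicates 2, 3 and 5 lay below all controls, and DNAJB11 was not called (log2 fold change -0.74, SE 0.31, limma adjusted p = 0.147). DNAJB6, which holds back amyloid formation, stood at 3.72 ± 1.89 and 6.02 ± 1.57 FPKM (log2 fold change -0.64, limma adjusted p = 0.146). Without gout replicate 5 it was called (limma adjusted p = 0.0487), a setting in which calls over all tested rows rose from 856 to 1466. DNAJB9, a cofactor of the endoplasmic reticulum HSP70, stood at 3.33 ± 1.32 and 4.75 ± 1.25 FPKM. DNAJB13, a protein of sperm and cilia axonemes, was the one DNAJB member with a positive log2 fold change, 0.10.

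Among 19 tested DNAJC members 17 lay below 0, and 11 after quantile normalization, beside 76.8% and 49.1% of all tested rows. DNAJC8, a splicing factor, was the most abundant, at 66.3 ± 22.4 FPKM in gout kidneys against 90.9 ± 10.2 in healthy ones (SD, n = 5 and 6, log2 fold change -0.50, limma adjusted p = 0.181). DNAJC5, the vesicle protein CSP, stood at 2.62 ± 0.944 and 4.69 ± 1.50 FPKM (limma adjusted p = 0.110). DNAJC3, an inhibitor of the kinase PERK, ranged from 5.32 to 18.3 FPKM among gout goslings and from 9.78 to 16.0 among controls. DNAJC2 had the largest positive log2 fold change of all members, 0.31 (95% interval -0.23 to 0.84, limma adjusted p = 0.442), and stood at 27.6, 16.6, 11.6, 18.1 and 24.3 FPKM in gout against 11.7 to 22.6 in control libraries.

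DNAJB14, a J-domain protein of the endoplasmic reticulum membrane, had the smallest unadjusted p of the members after HSPD1. It stood at 6.09 ± 1.65 FPKM in gout kidneys against 9.93 ± 2.87 in healthy ones (SD, n = 5 and 6, log2 fold change -0.62, limma adjusted p = 0.107).

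The 8 subunits of the CCT ring, which stand in the complex in equal number, were all tested and 0 called, beside 6.99% of all tested rows. At an unadjusted p under 0.05, 1 was lower and 0 higher, beside 24.3% and 2.69% of all tested rows. The mean levels of the subunits in control kidneys ran from 40.3 FPKM for CCT2 through 48.7 for TCP1, 50.4 for CCT8, 59.3 for CCT4, 59.7 for CCT3, 81.7 for CCT5 and 86.9 for CCT7 to 91.7 for CCT6A. The SD between control goslings ran from 5.73 to 23.3 FPKM. Neighbours in this order differed by more than the SD of both only between CCT2 and TCP1 and between CCT3 and CCT5. The summed level was 616, 304, 238, 726 and 613 FPKM in gout and between 475 and 631 FPKM in control libraries. Gout replicates 2 and 3 lay below all controls and gout replicate 4 above them.

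Within that sum the subunits did not keep one proportion. CCT6A took 13.4%, 13.9%, 11.1%, 10.1% and 14.0% in gout and between 15.0% and 20.5% in control libraries, and this share was the one of the 8 whose groups did not overlap. CCT6A itself stood at 82.8, 42.2, 26.3, 73.2 and 85.6 FPKM in gout and between 72.1 and 107 in control libraries, and it was not called (log2 fold change -0.67, SE 0.30, limma adjusted p = 0.168). CCT7 reached 35.0% of the sum and 254 FPKM in gout replicate 4, against 40.8 to 138 FPKM in the other gout and 61.8 to 129 in control libraries (limma adjusted p = 0.862). The shares are a description, given without a test, and a row that joins several transcripts may weigh them in a way the sources used here do not state. Such shares were not computed for other sets of genes.

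The goslings with gout differed among themselves more than the healthy ones did. On the log2(FPKM + 1) scale the SD was larger in gout than in control for 55 of the 59 tested members, 93.2%, beside 77.7% of all tested rows. The median SD of the members was 0.57 in gout and 0.30 in control, and 0.50 and 0.32 over all rows. After quantile normalization the medians were 0.40 and 0.28 for members and 0.39 and 0.31 for all rows.

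Gout replicate 3 was the lowest gout gosling for 38 of 59 members, 64.4%, beside 36.7% of all tested rows, and gout replicate 5 the highest for 27 members, 45.8%, beside 39.3% of rows. After quantile normalization gout replicate 3 was lowest for 37.3% of members and 18.4% of rows. Gout replicate 5 was then highest for 25.4% of members and 17.8% of rows, and gout replicate 4 for 28.8% and 24.5%. The summed FPKM of all 66 members was 775 in gout replicate 3, 1230 in replicate 2, and 2180 to 2853 in the other 3, and 1792 to 2597 in control libraries. Gout replicate 3 also had the smallest column total, 229465 FPKM, against 246944 to 399990 in the other 10 libraries. As a share of the column total the members took 0.338% there, 0.498% to 0.713% in the other gout and 0.518% to 0.690% in control libraries.

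**Figure D4:**
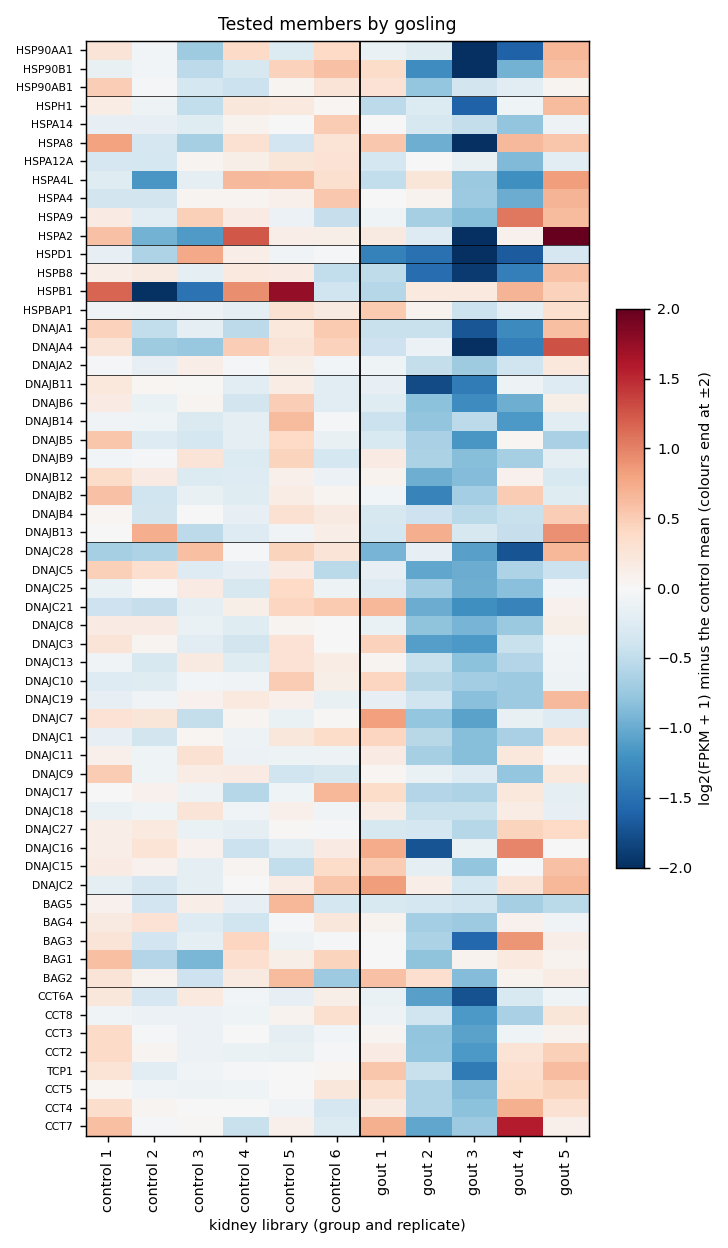
Log2(FPKM + 1) of each tested member in each gosling minus the mean of the 6 control libraries, with colours ending at ±2 and families separated by lines. Gout replicate 3 is below the control mean in 57 of 59 members and gout replicate 5 in 21, and HSPD1 is below it in all 5 gout goslings.

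Rows with a LOC number that the table describes as heat shock proteins, a J-domain protein or a heat shock factor fell outside the rule and were examined after its members. There were 6, the factor among them, of which 5 were tested and 0 called, beside 6.99% of all tested rows. At an unadjusted p under 0.05, 1 of these rows was lower and 0 higher, beside 24.3% and 2.69% of all tested rows. LOC106048003, described as heat shock protein beta-11-like, stood at 450, 21.2, 3.75, 666 and 37.4 FPKM in gout and at 36.3, 54.6, 6.01, 49.7, 25.0 and 18.4 FPKM in control libraries. Gout replicates 1 and 4 exceeded every control, gout replicates 2 and 5 lay among them and gout replicate 3 below them, and the row was not called (log2 fold change 1.29, SE 1.08, 95% interval -1.02 to 3.60, limma adjusted p = 0.454). A row described as heat shock factor 3, a factor known from birds, stood at 6.95 ± 1.91 FPKM in gout kidneys against 8.27 ± 1.66 in healthy ones (limma adjusted p = 0.502).

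Some other stress-related rows, picked after their values were seen, were high in the same pair of goslings. SQSTM1, the autophagy receptor p62 for ubiquitin-marked proteins, stood at 305, 40.8, 41.4, 1052 and 82.7 FPKM in gout and between 66.6 and 91.2 FPKM in control libraries (limma adjusted p = 0.471). ATF3, a stress-induced transcription factor, stood at 8.65, 1.85, 0.983, 10.6 and 2.72 FPKM in gout and between 2.10 and 3.89 in control libraries. JUN, an immediate early gene, stood at 107, 19.4, 13.0, 129 and 42.7 FPKM in gout and between 25.4 and 62.1 in control libraries. In each of these 3 rows gout replicates 1 and 4 lay above all controls, and gout replicates 2 and 3 below them. The immediate early genes FOS and EGR1 did not share this pattern, since FOS stood at 19.0 and 12.3 FPKM in gout replicates 1 and 4 with a control maximum of 32.0, and EGR1 at 27.5 and 23.2 FPKM with a control maximum of 48.1. Among the members, gout replicates 1 and 4 both stood above all controls for CCT5, CCT7, TCP1 and DNAJC16. Gout replicate 5 did so too for CCT5 and TCP1. Of the pair, only gout replicate 4 did for HSPA9, BAG3 and CCT4, and only gout replicate 1 for DNAJC2 and DNAJC3, among others. Neither gosling of the pair stood above all controls for HSPA8 or HSPA2, and no group was formed from the pair.

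**Figure D5:**
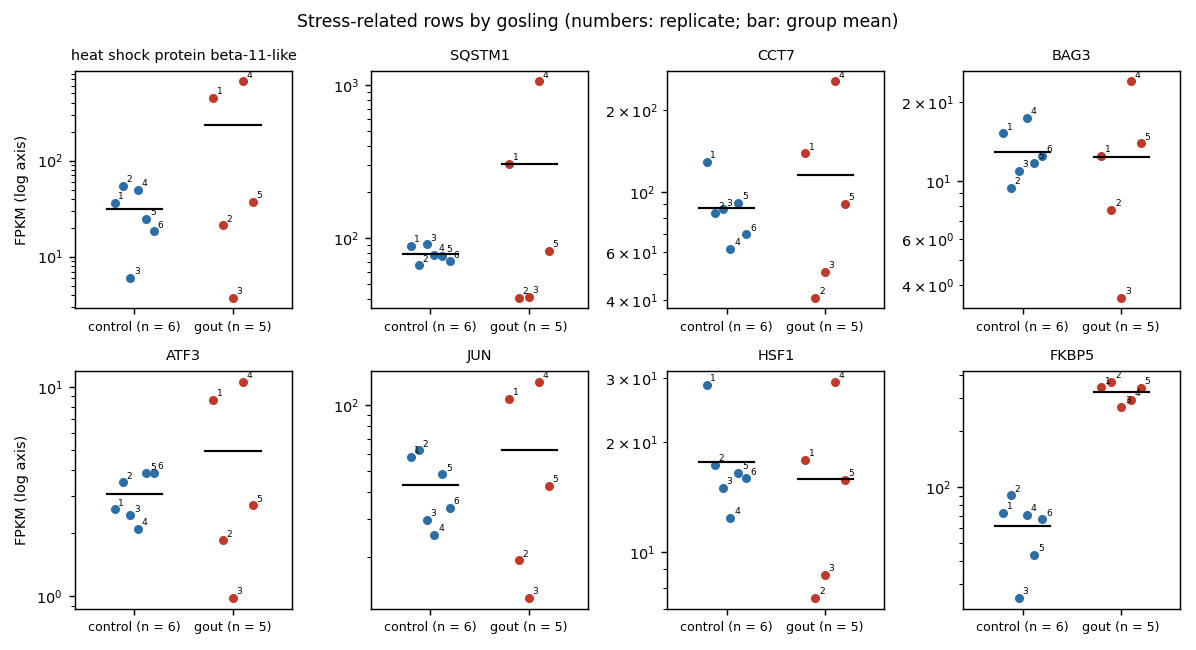
FPKM on a log axis in each gosling for the heat shock protein beta-11-like row, SQSTM1, CCT7, BAG3, ATF3, JUN, HSF1 and FKBP5, with replicate numbers and the group mean as a bar. Gout replicates 1 and 4 are the highest 2 of all goslings for the beta-11-like row, SQSTM1, CCT7, ATF3 and JUN, while all 5 gout goslings lie above all controls for FKBP5.

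The partners of these chaperones comprised heat shock factors, co-chaperones, prefoldins and CCT partners, mitochondrial chaperones and proteases, and HSP90-bound steroid receptors. Also listed were alpha-crystallins, SERPINH1, nascent chain genes and aggregate-handling genes such as SQSTM1, which made 57 symbols in all. A row under that name was found for 43 of the symbols, and 38 were tested. Of these 38, 1 rose and 0 fell by limma's adjusted p, beside 0.694% and 6.29% of all tested rows. At an unadjusted p under 0.05, 8 were lower and 1 higher, beside 24.3% and 2.69% of all rows. A log2 fold change below 0 was found for 30 of the 38, and for 22 after quantile normalization, beside 76.8% and 49.1% of all rows. The gene that rose was FKBP5, the HSP90 co-chaperone that holds the glucocorticoid receptor in its inactive state, at 345, 369, 270, 294 and 344 FPKM in gout and 73.0, 90.4, 25.4, 70.9, 43.3 and 67.2 FPKM in control libraries (log2 fold change 2.47, SE 0.30, limma adjusted p = 0.00145). FKBP4, which replaces FKBP5 on activated receptors, stood at 69.9, 35.6, 15.5, 31.4 and 65.9 FPKM in gout and between 59.6 and 71.7 in control libraries, and was not called (log2 fold change -0.76, limma adjusted p = 0.157).

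HSF1, the master factor of the heat shock response, stood at 17.9, 7.49, 8.69, 29.3 and 15.8 FPKM in gout and between 12.4 and 28.8 in control libraries (limma adjusted p = 0.630). HSF2 stood at 2.78 ± 0.667 and 5.12 ± 1.47 FPKM (SD, n = 5 and 6, log2 fold change -0.68, limma adjusted p = 0.0740). ST13, the HSP70 interacting protein Hip, stood at 19.8 ± 7.95 and 32.1 ± 4.39 FPKM (limma adjusted p = 0.0818). NR3C1, the glucocorticoid receptor, stood at 3.92 ± 1.31 and 6.37 ± 2.12 FPKM (limma adjusted p = 0.164). As background, HSF1 is known to be governed mainly at the protein level.

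The tissue was checked by its markers. The kidney transcription factor PAX2 stood between 7.23 and 10.01 FPKM in every library, and the tubule markers SLC12A1, a salt transporter, and CALB1, a calcium-binding protein, were lower in gout (limma adjusted p = 0.0349 and 0.00358). Of 9 tested lymphocyte markers 8 were lower, and of 5 macrophage markers 4, beside 6.29% of all tested rows. The summed level of the lymphocyte markers was 16.9 to 180 FPKM in gout and 142 to 624 in control libraries. For the macrophage markers it was 40.9 to 196 and 189 to 565 FPKM. The erythroid marker RHAG was also lower (limma adjusted p = 0.0444). After quantile normalization 7 of the 9 lymphocyte markers, 2 of the 5 macrophage markers and CALB1 were still lower, while SLC12A1 and RHAG were not called. In that setting 245 of all 12252 tested rows were called lower. HSPD1 was also lower in the gout group, and the part of these marker differences in that fall was not tested. In tissue samples, fewer cells of a type and less RNA per cell cannot be told apart. Of 4 immediate early genes 0 were called by limma, beside 6.99% of all tested rows. At an unadjusted p under 0.05, 0 were lower and 0 higher, beside 24.3% and 2.69% of all tested rows. The summed level of these genes was 23.3 to 175 FPKM in gout and 48.6 to 146 in control libraries. The design text counts 5 and 6 goslings, 1 library each. The p-values therefore set the group difference against the spread between animals, which includes differences between their libraries.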

How the data were processed

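The deposited values are FPKM made by the authors, 1 column per gosling matched to its title. HISAT and StringTie are named, with no version, per the submitters' processing notes; poly(A) RNA was sequenced in read pairs, per the labels' protocols. The genome build, strand setting and the way transcripts of a row were joined are not given in the sources used here (33 of 66 members join several). In 55 pairs of libraries at most 0.495% of low values shared a ratio (within 0.001 on the natural log scale), so no counts were recovered.

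Values were analysed as log2(FPKM + 1) with limma 3.58.1 in R 4.3.3 (group as the term, empirical Bayes with trend, two-sided), on the 12252 of 19275 rows that reached 1 FPKM in 5 or more libraries, with Benjamini-Hochberg adjustment over all of them. The pseudocount of 1 understates changes of low rows. Intervals are limma's 95% intervals, not adjusted. A symbol with several rows was its row with the highest mean. Python 3.11.15, pandas 2.3.3 and matplotlib 3.10.9 made tables and figures, and the fit was tested on simulated data.

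The members, lists and naming rule were chosen with earlier results of these data known. Named were members past the threshold, the 5 highest and 5 lowest log2 fold changes among those averaging 5 FPKM or more in a group, the most abundant of each family and a fixed set; others appear as examples chosen after their values were seen. Alternatives were a pseudocount of 0.1, no filter, a filter at 5 FPKM, 3 other scalings, summed rows, the label number as a block and each gosling left out. The planned search of promoters for heat shock elements was not run, and sequences were not used here.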

Additional observations from a re-analysis of the deposited data

Results flagged for a closer look

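In 2 of 70 sets (the gout or the control libraries of a named gene), 1 gosling stood far from the others on the log2(FPKM + 1) scale; chance gives such a gap in about 1 of 20 sets. BAG1 was low in gout replicate 2, at 1.75 FPKM with the next at 3.82. CCT3 was high in control replicate 1, at 77.1 FPKM with the next at 59.5.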

How the results depend on the processing

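HSPD1 was the 1 member called with upper quartile scaling, quantile normalization, the TPM scale, summed rows, a pseudocount of 0.1, a filter at 5 FPKM and no filter, with limma adjusted p from 0.0211 to 0.0385. The gosling numbers in the labels are shared by the groups. Correlations of deviations between same-numbered goslings ran from -0.09 to 0.24, and 1 of 5 numbers matched its own best. Such correlations cannot exclude a pairing by number. With the number as a replicate block 0 members were called (HSPD1 at limma adjusted p = 0.0547), and HSPA9 turned to -0.076. With 1 gosling left out, 0 to 3 members, 1 to 3 partner genes and 316 to 1466 of all rows were called, the highest without gout replicate 5. The 856 calls over all rows became 450 with the filter at 5 FPKM, 471 after quantile normalization and 522 with upper quartile scaling.

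Changes of sign are listed here for the 30 named members only. Of all 59 tested members 50 lay below 0 on the main scale. After quantile normalization 34 did, with upper quartile scaling 37 and on the TPM scale 44. Among the named members, log2 fold changes that turned positive after quantile normalization were HSPA8 0.026, HSP90AB1 0.048, HSPA4 0.078, HSPA4L 0.037, BAG1 0.21, TCP1 0.19, CCT2 0.042, CCT4 0.22 and CCT5 0.21. With upper quartile scaling they were HSP90AB1 0.059, HSPA4 0.069, BAG1 0.12, TCP1 0.20, CCT2 0.063, CCT4 0.22 and CCT5 0.21, and on the TPM scale BAG1 0.038, TCP1 0.074, CCT4 0.099 and CCT5 0.082. With 1 gosling left out the sign changed for HSPA9 (-0.24 to 0.24), HSPA2 (-0.51 to 0.55), CCT7 (-0.24 to 0.41), HSPB1 (-0.20 to 0.54), BAG3 (-0.52 to 0.091), HSPA8 (-0.56 to 0.19), HSPBAP1 (-0.060 to 0.18), HSPA4 (-0.41 to 0.011), BAG1 (-0.28 to 0.084), TCP1 (-0.24 to 0.27), CCT2 (-0.37 to 0.033), CCT4 (-0.24 to 0.15) and CCT5 (-0.19 to 0.14). The cause was not tested. None of these members was called under those settings. Depth is unknown, so what it limits cannot be given.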
